A study of Homo sapiens with 4 samples.

Results

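The unfolded protein response of the endoplasmic reticulum (ER) was followed through 10 genes in T98G cells, an established human glioblastoma line. The genes were taken by name, as a pathway, and all 10 have a row among the 20913 genes of the deposited RNA-seq count table. They are ATF6, ERN1, XBP1, HYOU1, DNAJB9, SDF2L1, PDIA4, HERPUD1, SEL1L and EDEM1. Cells overexpressing LGP2 from a construct that the column headers call flag were set against cells carrying the vector, with 2 libraries in each group, numbered 2 and 3 in the labels. The labels call the cell type astroblastoma, and their treatment text mentions overexpressed LGP2 for the vector libraries too, so the groups follow the genotype labels. LGP2 is the product of DHX58 and belongs with RIG-I and MDA5 among the cytosolic sensors of viral RNA. The promoter of the construct was not given in the sources used here, nor whether the cells were a clone or a pool. It is not stated that the replicates came from separate cultures, so every p-value and SD measures only the spread between these libraries, which may be technical.

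Library totals lay between 56033379 and 63932198 counts. DHX58 had 30509 and 34045 counts with LGP2 overexpression, against 377 and 571 counts in vector, a 68.3-fold difference (edgeR adjusted p = 1.9e-06), so the overexpressed gene matched its label in every library. Reads of the construct and of the cells' own gene cannot be told apart. The growth text of the labels names 293T cells, while the titles name T98G, and markers were therefore read at library-total CPM, counts scaled to a common library size. Of 8 markers listed for astrocytic and glioma lines, 5 were analysed here, since S100B, AQP4 and SOX2 have no row among the counts. The summed level of the 5 was 5034 and 4733 CPM with LGP2 overexpression, against 5920 and 4834 CPM in vector. VIM (2922 to 3829 CPM) and CD44 (1664 to 2090 CPM) made up nearly all of it, while GFAP stayed at or under 0.696 CPM and NES at or under 0.585 CPM. PAX2 and PAX8, listed for an embryonic kidney line, summed to 4.18 and 4.42 CPM with LGP2 overexpression, against 3.58 and 2.70 CPM in vector. LIN28B, also listed for that line, has no row. The 3 analysed markers of microglia and macrophages summed to 0.607 and 1.11 CPM with LGP2 overexpression, against 1.49 and 1.12 CPM in vector. The 1 analysed endothelial marker, PECAM1, was at 5.05 and 7.90 CPM with LGP2 overexpression, against 3.11 and 5.04 CPM in vector.

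The ER folds secreted and membrane proteins, and the unfolded protein response adjusts its capacity when misfolded chains build up. Its 3 sensors span the ER membrane: PERK (EIF2AK3) slows translation, ATF6 moves to the Golgi and is cut to release a transcription factor, and IRE1 (ERN1) cuts XBP1 mRNA so that it encodes an active transcription factor. ATF6 and spliced XBP1 then raise the genes of chaperones, disulfide isomerases and ER-associated degradation, by which misfolded proteins are drawn back into the cytosol and destroyed. Secretory demand, low glucose and hypoxia are known triggers in tumours.

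Sequences are shown first because they set what gene counts can and cannot report here. IRE1 removes a short stretch from inside exon 4 of XBP1 mRNA, and reads with and without it are summed in a single gene count, so splicing of XBP1 was not measured. In GENCODE 29, 4 of the 7 XBP1 transcripts hold the stretch of 26 bases and 2 lack it. Because letters repeat at both ends, 7 placements of the break give the same product. The placement drawn has CAG after each break. Capitals mark the removed bases, at chr22:28796127-28796152 on the minus strand of GRCh38 within the coding sequence, in a window that spans chr22:28796097-28796182.
XBP1 exon 4: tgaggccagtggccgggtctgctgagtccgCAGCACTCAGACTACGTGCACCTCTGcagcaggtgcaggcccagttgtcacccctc

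Promoters were searched for ER stress elements, the sites through which ATF6, with the factor NF-Y, is known to act. RefSeq promoters (GRCh38.p14, 250 bases before to 50 after a gene's start) matched all 10 genes. The ERSE was spelled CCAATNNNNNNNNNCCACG and ERSE-II ATTGGNCCACG, each on either strand, and both contain the short sites CCAAT and CCACG. Of 35116 promoters in the table, 0.0769% hold an ERSE and 0.0541% an ERSE-II. Among the 10 genes, XBP1 holds an ERSE, and HERPUD1, SDF2L1 and HYOU1 hold ERSE-II, HYOU1 in 2 copies 185 and 79 bases before its start. TGACGTGG, a site of the XBP1 type carried by 0.729% of promoters, overlaps the distal HYOU1 copy and occurs in none of the other members. CCACG alone is in 8 of the 10 genes, beside 11494 of 27305 genes with a promoter (38.1% of all promoters). CCAAT alone is in 9 of the 10, beside 10846 of 27305 (34.6% of promoters). A gene counts if any of its promoters holds the site. In the ATF6 window none of these letters was found, and ERN1 has a CCAAT only. A match is a description of the sequence, and binding was not measured. The stretches below carry the elements in capitals, on the strand of the gene. They lie at chr22:28800573-28800651 (minus strand) for XBP1, chr16:56931995-56932065 (plus) for HERPUD1, chr22:21642084-21642154 (plus) for SDF2L1 and chr11:119057244-119057420 (minus) for HYOU1.
XBP1: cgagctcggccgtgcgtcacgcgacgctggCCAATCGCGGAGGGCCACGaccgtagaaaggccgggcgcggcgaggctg
HERPUD1: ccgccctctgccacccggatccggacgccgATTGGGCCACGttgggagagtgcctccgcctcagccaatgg
SDF2L1: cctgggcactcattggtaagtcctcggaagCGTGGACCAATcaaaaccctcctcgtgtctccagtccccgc
HYOU1: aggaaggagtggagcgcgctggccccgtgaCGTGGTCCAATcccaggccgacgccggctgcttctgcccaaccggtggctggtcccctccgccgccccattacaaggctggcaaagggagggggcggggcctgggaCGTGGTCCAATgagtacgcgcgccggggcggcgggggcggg

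With LGP2 overexpression no gene of the set rose or fell by the test across the table. Of the 10 genes, 0 were called higher and 0 lower by edgeR's quasi-likelihood test at an adjusted p under 0.05, where 3 of 17863 tested genes (0.0168%) were called, all of them higher, and 0% lower. DESeq2 and limma-voom also called 0 of the 10. At an unadjusted p under 0.05, 1 of the 10 genes was higher (SEL1L) and 0 lower, against 4.46% of all tested genes, made up of 3% higher and 1.46% lower. For all 10 genes the 95% interval lay within a 2-fold change in either direction, which also held for 10911 of all 17863 tested genes. It held too for 9604 of 10054 other genes with a mean at or above that of ERN1, the lowest of the set. That mean was 7.09 CPM on TMM-scaled library totals. The interval lay within 1.5-fold for 8 genes, SEL1L and ERN1 being the exceptions, and for 6195 of those 10054 genes. Those genes were not matched in level to the set, whose means ran up to 292 CPM (PDIA4). These counts are therefore not read as a trait of the set. The log2 fold changes ran from -0.24 (ERN1) to 0.47 (SEL1L), with a median of 0.02 beside -0.0080 over all tested genes. Groups did not overlap for 2 genes that were higher, ATF6 and SEL1L, and for 1 that was lower, ERN1. Across all tested genes 16.7% lay higher and 16.5% lower in this way, 33.2% in all, which is near the 3 of 10 seen here. In bulk RNA, fewer cells expressing a gene and less of its RNA per cell cannot be told apart.

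**Figure D1:**
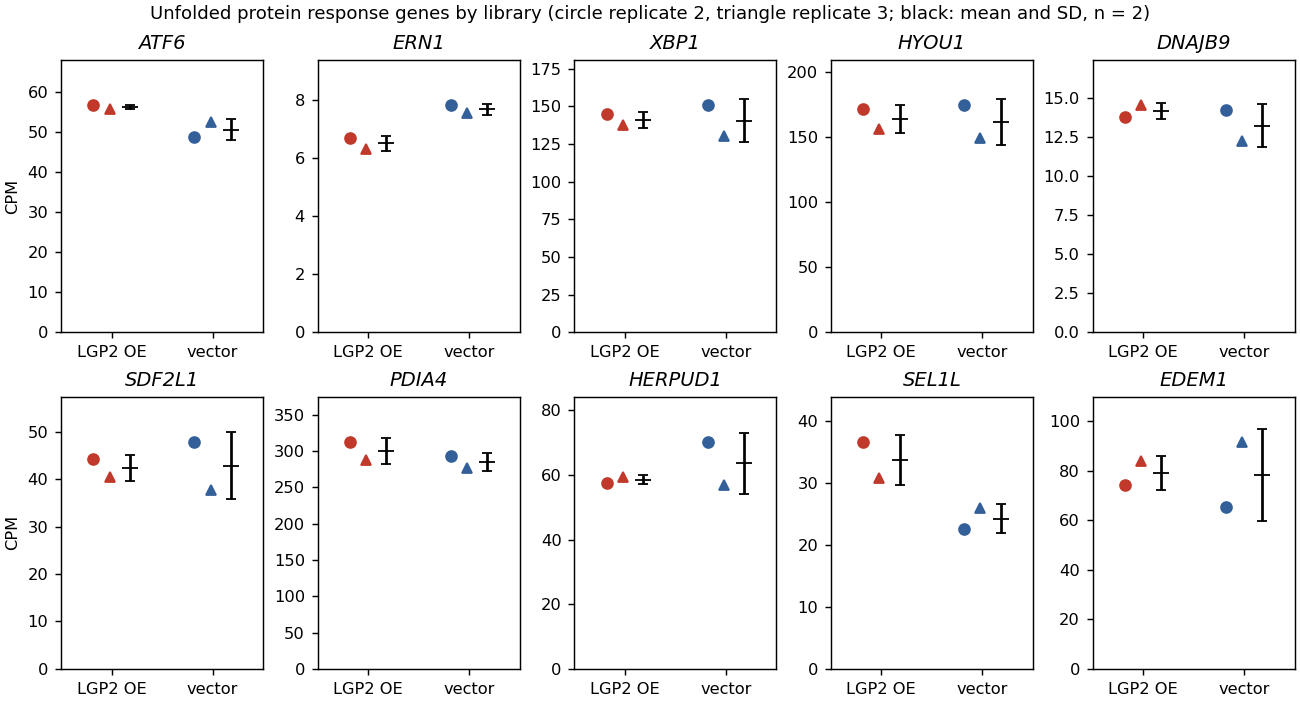
CPM of each of the 10 genes (vertical axes from 0, scaled per gene) in LGP2 overexpression (LGP2 OE, red) and vector (blue) libraries, with circles for replicate 2, triangles for replicate 3 and the mean with its SD in black. The groups overlap in 7 panels and separate for ATF6, ERN1 and SEL1L. In every panel but those of ERN1, PDIA4 and SEL1L the vector pair is farther apart than the LGP2 overexpression pair.

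**Figure D2:**
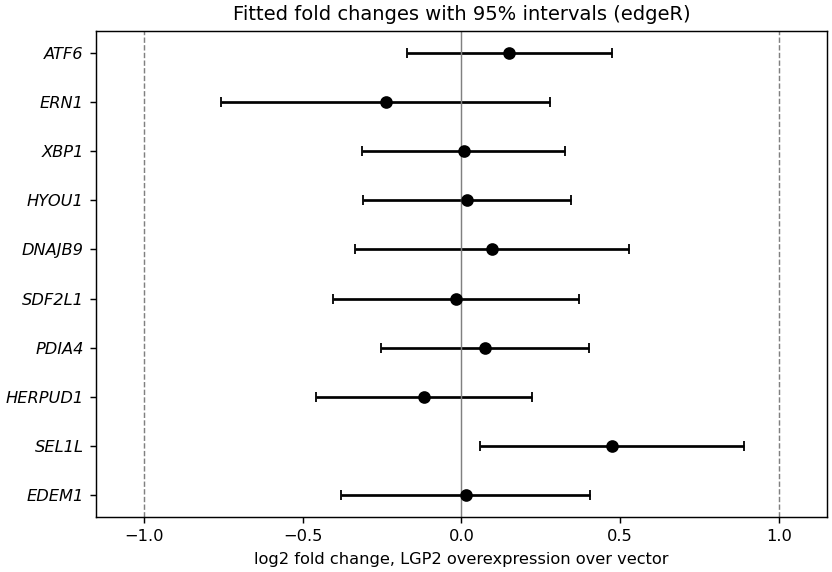
Log2 fold change of LGP2 overexpression over vector for each gene, with its 95% interval from edgeR. Dashed lines mark a 2-fold change, which no interval reaches, and the SEL1L interval (0.06 to 0.89) is the only one that lies wholly on one side of 0.

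The sensors come first in the pathway. ATF6, the membrane-bound factor released by cutting in the Golgi, lies at chromosome 1, 161766294 to 161964070, on the plus strand (GENCODE 29, GRCh38). It was at 56.7 and 55.9 CPM with LGP2 overexpression, against 48.9 and 52.5 CPM in vector, where CPM here and below uses TMM-scaled library totals. Both LGP2 overexpression libraries stood above both vector libraries, with means of 56.3 ± 0.588 and 50.7 ± 2.58 CPM (SD, n = 2 per group). On the log2 scale ATF6 differed by 0.15 (95% interval -0.17 to 0.47, SE 0.15), with an adjusted p = 0.998 by edgeR, and with GC and length offsets, an alternative chosen after seeing the data, by -0.06. ERN1 encodes IRE1, the kinase and nuclease that cuts XBP1 mRNA, at chromosome 17, 64039142 to 64130819, minus strand. Its level was 6.68 and 6.33 CPM with LGP2 overexpression, against 7.81 and 7.54 CPM in vector. Both LGP2 overexpression libraries were lower, at means of 6.51 ± 0.251 and 7.68 ± 0.194 CPM (SD, n = 2 per group). ERN1 differed by -0.24 on the log2 scale (95% interval -0.76 to 0.28, SE 0.23), at an adjusted p = 0.998, and it had the fewest reads of the set, 376 to 475 counts per library, and the widest interval.

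XBP1, the factor that IRE1 splicing activates, lies at chromosome 22, 28794555 to 28800597, minus strand. It was at 145 and 137 CPM with LGP2 overexpression, against 151 and 130.2 CPM in vector. The LGP2 overexpression libraries fell between the vector libraries, with means of 141 ± 5.22 and 140.4 ± 14.3 CPM (SD, n = 2 per group). The difference was 0.0075 on the log2 scale (95% interval -0.31 to 0.33, SE 0.14), at an adjusted p = 0.999. In fold terms the interval ran from 0.806 to 1.25, for spliced and unspliced mRNA together.

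For the chaperones of the ER lumen the groups overlapped in every case. HYOU1, a large Hsp70 relative that exchanges nucleotide on the chaperone BiP, lies at chromosome 11, 119044189 to 119057202, minus strand. It was at 172 and 156 CPM with LGP2 overexpression, against 174 and 149 CPM in vector. In each group replicate 2 was the higher library, and between the groups the log2 difference was 0.02 (95% interval -0.31 to 0.35, SE 0.15). DNAJB9 (chromosome 7, 108569568 to 108574850, plus strand) encodes ERdj4, a J-domain cochaperone of BiP that holds IRE1 inactive. Its levels of 13.8 and 14.5 CPM with LGP2 overexpression overlapped the 14.2 and 12.3 CPM in vector, with a log2 fold change of 0.10 (SE 0.19, 95% interval -0.34 to 0.53). SDF2L1, at chromosome 22, 21642261 to 21644298, plus strand, encodes an ER protein that works with BiP and J-domain cochaperones. It was at 44.2 and 40.3 CPM with LGP2 overexpression, inside the 47.8 and 37.8 CPM of the vector libraries, and its log2 fold change was -0.02 (SE 0.17, 95% interval -0.40 to 0.37). PDIA4, a disulfide isomerase also known as ERp72, lies at chromosome 7, 149003062 to 149028641, minus strand. It had the most reads, 16764 to 18733 counts per library, at 312 and 288 CPM with LGP2 overexpression, against 294 and 276 CPM in vector. These groups overlapped, and the log2 fold change of PDIA4 was 0.07 (SE 0.15, 95% interval -0.25 to 0.40). For each of these 4 genes the adjusted p was 0.998 by edgeR.

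Degradation genes held the largest difference of the set and the widest vector pair. SEL1L, the adaptor of the ubiquitin ligase HRD1 (SYVN1) in the ER membrane, lies at chromosome 14, 81471549 to 81533861, minus strand. Its level was 36.6 and 30.8 CPM with LGP2 overexpression, against 22.6 and 25.9 CPM in vector. Both LGP2 overexpression libraries were higher than both vector libraries, at means of 33.7 ± 4.09 and 24.3 ± 2.39 CPM (SD, n = 2 per group). The fold was 1.39 (95% interval 1.04 to 1.85), a log2 fold change of 0.47 (SE 0.19) with an unadjusted p of 0.0293 and an adjusted p = 0.998 by edgeR, so it failed the correction over the table. By its log2 fold change SEL1L stood at the 88.4th percentile of all tested genes. Its transcripts have the lowest GC content of the set, 40.9% against a median of 49.2% over tested genes, and its exons span 9.56 kb. With GC and length offsets, the log2 fold change of SEL1L was 0.26. These offsets take GC content and length together, and whether either has a part was not tested.

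HERPUD1, a ubiquitin-like membrane protein that joins the HRD1 complex, lies at chromosome 16, 56932048 to 56944863, plus strand. It was at 57.6 and 59.5 CPM with LGP2 overexpression, against 70.1 and 56.9 CPM in vector. Vector replicate 2 stood apart from the other 3 libraries, and the groups differed by -0.12 on the log2 scale (95% interval -0.46 to 0.22, SE 0.15), at an adjusted p = 0.998. EDEM1 (chromosome 3, 5187646 to 5219957, plus strand) encodes a protein that directs misfolded glycoproteins to degradation. Its levels were 74.2 and 84.0 CPM with LGP2 overexpression, against 65.2 and 91.5 CPM in vector. Here vector replicate 2 was the lowest library and vector replicate 3 the highest, at group means of 79.1 ± 6.95 and 78.4 ± 18.6 CPM (SD, n = 2 per group). EDEM1 differed by 0.01 on the log2 scale (95% interval -0.38 to 0.40, SE 0.18), at an adjusted p = 0.999.

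Counting limits touch 3 of the genes. None shares an exon with another gene on its own strand in GENCODE 29, but DNAJB9 overlaps exons of THAP5 and PNPLA8 on the opposite strand, EDEM1 those of AC026202.3 and HYOU1 those of AP003392.3, and the strand setting of the counting is not known. PNPLA8 had 1120 and 1802 counts with LGP2 overexpression, against 1094 and 1321 counts in vector, more than DNAJB9 in every library. THAP5 had 704 and 974 counts with LGP2 overexpression, against 613 and 641 counts in vector, which is close to the number of reads assigned to DNAJB9 (776 and 946 with LGP2 overexpression, 864 and 746 in vector). AC026202.3 had 1 to 9 counts per library, against 3965 to 5557 for EDEM1.

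Levels of different genes were compared per kilobase of exon, with the union of GENCODE 29 exons as length. PDIA4 was highest, at 91.6 ± 5.30 CPM per kilobase with LGP2 overexpression and 86.9 ± 3.82 in vector (SD, n = 2 per group). XBP1 (46.6 and 46.4 CPM per kilobase as means with LGP2 overexpression and in vector) and SDF2L1 (38.5 and 38.9) came next. XBP1 was above SDF2L1 in every library, though the ranges of these neighbours over the 4 libraries overlapped. HYOU1 followed at means of 21.3 and 21.0 CPM per kilobase. HERPUD1 (11.4 and 12.3) and EDEM1 (11.7 and 11.6) could not be ordered, since which was higher differed between libraries. ATF6 (7.13 and 6.42), DNAJB9 (4.99 and 4.67), SEL1L (3.53 and 2.54) and ERN1 (0.599 and 0.707) came last, in that order in all libraries. PDIA4, XBP1, SDF2L1, HYOU1, HERPUD1 and EDEM1 thus lay above both sensors in every library, while DNAJB9 and SEL1L lay between the sensors. PDIA4 was 137-fold above ERN1 over the 4 libraries. Union exon lengths include rarely used exons, so these levels depend on the annotation.

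For 7 of the 10 genes the vector replicates differed more from each other than the group means did. The share of all tested genes for which this holds was not computed. A difference between single libraries also varies more than one between means of 2, so the count is not read as a trait of the set. Between vector replicates 2 and 3 the log2 CPM of replicate 2 was higher by 0.34 for SDF2L1, 0.30 for HERPUD1, 0.22 for HYOU1, 0.21 for XBP1 and 0.21 for DNAJB9. The differences of 3 genes ran the other way, -0.49 for EDEM1, -0.20 for SEL1L and -0.10 for ATF6. With LGP2 overexpression the differences of replicate 2 minus 3 were smaller for 7 of these 8 genes, between -0.18 (EDEM1) and 0.14 (HYOU1), the exception being SEL1L at 0.25. These 8 have the larger vector differences of the set, which makes smaller values in the other group likely. PDIA4 and ERN1 differed more with LGP2 overexpression, by 0.12 and 0.08, against 0.09 and 0.05 in vector. The 4 genes with an ERSE or ERSE-II had differences of 0.209 (XBP1) to 0.339 between the vector libraries. The 6 without ran from -0.488 to 0.210 (DNAJB9), so the ranges overlap. Vector replicate 2 also had a higher ribosomal protein score, the mean centred log2 CPM of 79 genes, at 0.28, against -0.10 and -0.05 with LGP2 overexpression and -0.13 in vector replicate 3. Whether that library's difference has a part in these values was not tested.

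**Figure D3:**
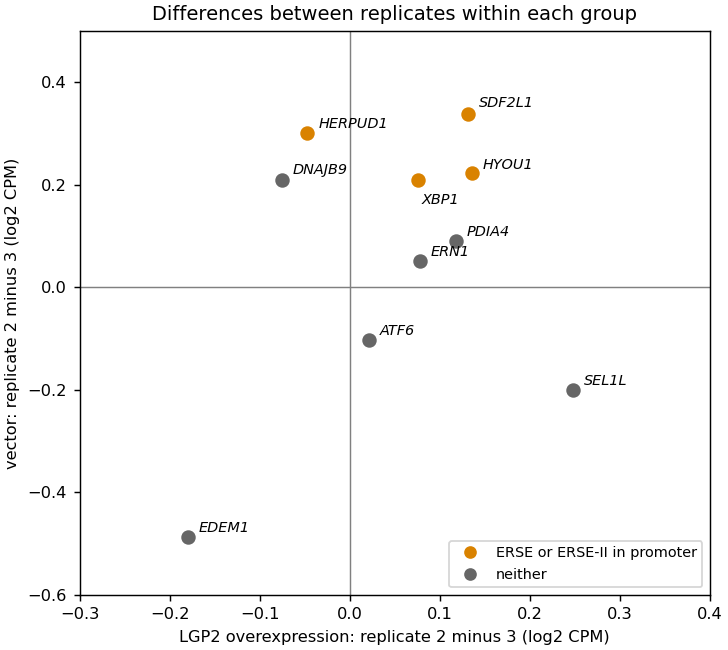
Replicate 2 minus replicate 3 in log2 CPM for each gene, within LGP2 overexpression (horizontal axis) and within vector (vertical axis), with orange points for genes whose promoter holds an ERSE or ERSE-II. The orange points lie between 0.21 and 0.34 on the vertical axis and EDEM1 lies lowest at -0.49.

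Leaving out a library turned the direction of 6 of the 10 genes. With all 4 libraries XBP1, EDEM1, HYOU1 and SDF2L1 among these had log2 fold changes between -0.02 and 0.02. How many of all tested genes turn in this way was not computed, so the count is not read as a trait of the set. Without LGP2 overexpression replicate 2, XBP1 was at -0.03 and HYOU1 at -0.05, and without LGP2 overexpression replicate 3, EDEM1 was at -0.08 and SDF2L1 at 0.05. Without vector replicate 2 the log2 fold change of SDF2L1 was 0.16, that of HERPUD1 0.04 and that of EDEM1 -0.21. Without vector replicate 3 it was -0.18 for SDF2L1, -0.26 for HERPUD1, 0.28 for EDEM1, -0.10 for XBP1, -0.09 for HYOU1 and -0.0073 for DNAJB9. SEL1L stayed above 0 in each such fit, between 0.34 and 0.59, ATF6 between 0.10 and 0.20 and PDIA4 between 0.01 and 0.13, while ERN1 stayed below, between -0.28 and -0.20. No gene of the set was called in any of these fits, in which the spread comes from the group that keeps its pair. The smallest adjusted p was 0.188, for SEL1L, and over its alternatives the adjusted p of SEL1L ran up to 0.99996.

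**Figure D4:**
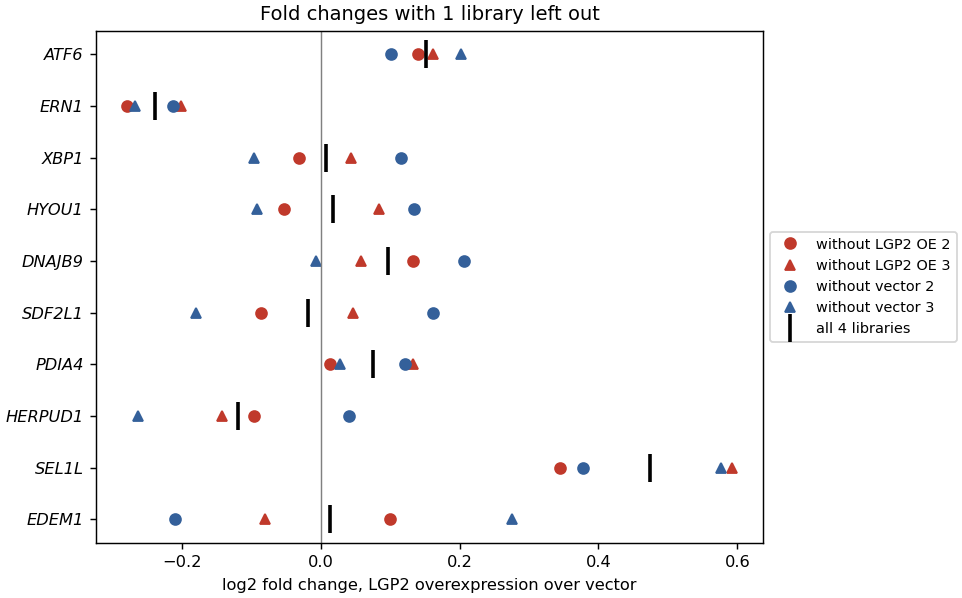
Log2 fold change of each gene with all 4 libraries (black bar) and with 1 library left out (red for an LGP2 overexpression library, blue for a vector library, circle for replicate 2, triangle for replicate 3). SEL1L stays between 0.34 and 0.59, while EDEM1 moves between -0.21 and 0.28 with the vector library left out.

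Genes around the set were read from 7 lists of ER folding and quality control, and 0 of their 119 tested genes were called by edgeR in either direction. DESeq2 and limma-voom also called none of them, and 8 were higher and 1 lower at an unadjusted p under 0.05, 7.56% in all beside 4.46% of all tested genes. Of 14 further sensors and transducers, 10 were below 0 and 4 above, and the list's median was -0.16 on the log2 scale, beside -0.0080 over all tested genes. EIF2AK3, the PERK sensor, was at 17.5 and 21.4 CPM with LGP2 overexpression, against 14.7 and 17.3 CPM in vector. The proteases that cut ATF6 pointed apart, with log2 fold changes of -0.22 (SE 0.15) for MBTPS1 and 0.34 (SE 0.20) for MBTPS2, and the ATF6 relative ATF6B, whose exons overlap TNXB, was at -0.30 (SE 0.21).

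Downstream of PERK, vector replicate 2 was again the high library. PPP1R15A, which restores translation by recruiting a phosphatase to eIF2, was at 134 and 124 CPM with LGP2 overexpression, against 296 and 133 CPM in vector. DDIT3, the stress factor CHOP, was at 33.5 and 35.3 CPM with LGP2 overexpression, against 60.7 and 30.1 CPM in vector. ATF4, the factor translated when eIF2 is phosphorylated, was at 671 and 651 CPM with LGP2 overexpression, against 896 and 635 CPM in vector. Log2 fold changes were -0.74 (SE 0.29), -0.40 (SE 0.27) and -0.21 (SE 0.19) for PPP1R15A, DDIT3 and ATF4. Without vector replicate 2 they were -0.04, 0.19 and 0.06, and without vector replicate 3 they were -1.21, -0.82 and -0.44.

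Of 16 ER chaperones and cochaperones 10 lay above 0, at a median of 0.09. HSPA5, the chaperone BiP that binds the sensors, was at 739 and 772 CPM with LGP2 overexpression, against 716 and 593 CPM in vector, a log2 fold change of 0.21 (SE 0.17). HSP90B1, the ER Hsp90, was at 543 and 657 CPM with LGP2 overexpression, against 385 and 505 CPM in vector. Of the lectin chaperones, calnexin (CANX) differed by 0.40 (SE 0.17) and calreticulin (CALR) by -0.0020 (SE 0.17) on the log2 scale. DNAJC10, a disulfide reductase with a J domain, was highest in the list at 0.53 (SE 0.19), and SDF2, the relative of SDF2L1, lowest at -0.15 (SE 0.14). HSP90B1 (42.4% GC, 4.695 kb of exon) and DNAJC10 (37.5%, 21.8 kb) were also fitted with GC and length offsets. Their log2 fold changes were then 0.28 and 0.23, in place of 0.43 and 0.53. Whether GC content or length has a part in this was not tested.

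The 16 disulfide isomerases and oxidases had a median of 0.03, with P4HB at -0.14 (SE 0.18), PDIA3 at 0.07 (SE 0.16), TMX3 at 0.50 (SE 0.22) and PDIA5 at -0.39 (SE 0.19). Of 23 listed degradation genes 22 were tested, and 14 of them lay below 0, at a median of -0.02. SYVN1, the HRD1 ligase that SEL1L serves, had 1202 and 1304 counts with LGP2 overexpression, against 1211 and 1310 counts in vector, a log2 fold change of -0.0033 (SE 0.18). The channel gene DERL1 was at 0.11 (SE 0.13), the extracting ATPase VCP at 0.04 (SE 0.17), its cofactor NPLOC4 at -0.0037 (SE 0.15), EDEM3 at 0.66 (SE 0.25) and HERPUD2 at -0.22 (SE 0.19). EDEM3, a mannosidase related to EDEM1, had the highest log2 fold change of the 119 genes, at 16.5 and 17.7 CPM with LGP2 overexpression, against 8.01 and 13.6 CPM in vector. Its log2 fold change ran from 0.33 without vector replicate 2 to 1.09 without vector replicate 3.

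Entry, glycosylation and export lists had medians of 0.02, 0.02 and -0.07, over 22, 13 and 16 tested genes. Among them SEC62, a translocon subunit, was at 65.0 and 87.7 CPM with LGP2 overexpression, against 53.9 and 56.7 CPM in vector. Log2 fold changes were 0.46 (SE 0.17) for SEC62, -0.17 (SE 0.19) for SEC61A2, -0.08 (SE 0.15) for SRP14 and -0.16 (SE 0.16) for SEC11A. UGGT1, the glucosyltransferase that senses misfolded glycoproteins, was at 0.36 (SE 0.16), PRKCSH at -0.40 (SE 0.18), RPN1 at 0.08 (SE 0.17) and GANAB at -0.02 (SE 0.21). The cargo receptor LMAN1 was at 0.43 (SE 0.18), its partner MCFD2 at 0.14 (SE 0.17), KDELR2 at -0.16 (SE 0.15) and the coat subunit SEC24D at -0.20 (SE 0.14). With GC and length offsets the log2 fold change was 0.17 for SEC62, 0.17 for LMAN1, 0.22 for TMX3, 0.11 for MBTPS2 and 0.42 for EDEM3. Several values also depended on 1 library. Without vector replicate 2, UGGT1 was at 0.17, PRKCSH at -0.10 and TMX3 at 0.21. Leaving out vector replicate 3 instead gave 0.58 for UGGT1, -0.66 for PRKCSH and 0.85 for TMX3. Leaving out LGP2 overexpression replicate 2 gave 0.65 for LMAN1, 0.66 for SEC62 and -0.56 for ATF6B, and leaving out LGP2 overexpression replicate 3 gave 0.15 for LMAN1, 0.23 for SEC62 and -0.07 for ATF6B. Counts of ATF6B, MBTPS2, DDIT3, HSP90B1 (with MIR3652), SYVN1, PDIA5, KDELR2 and DNAJC10 are uncertain, since each shares exons with another annotated gene on its strand. Exons on the opposite strand overlap EIF2AK3, DDIT3, HSP90B1, CALR, CANX, SDF2, P4HB, PDIA3 and TMX3. The same is true of SYVN1, DERL1, HERPUD2, NPLOC4, SEC62, SEC61A2, PRKCSH and MCFD2, and the strand setting is not known. Without vector replicate 3, edgeR called genes in 5 of the 7 lists, 4 chaperones, 2 sensors and transducers, 2 degradation genes, 2 glycosylation genes and 1 isomerase, in a fit that called 432 of 18677 genes (2.31%), and no gene of the lists was called without any other library.

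**Figure D5:**
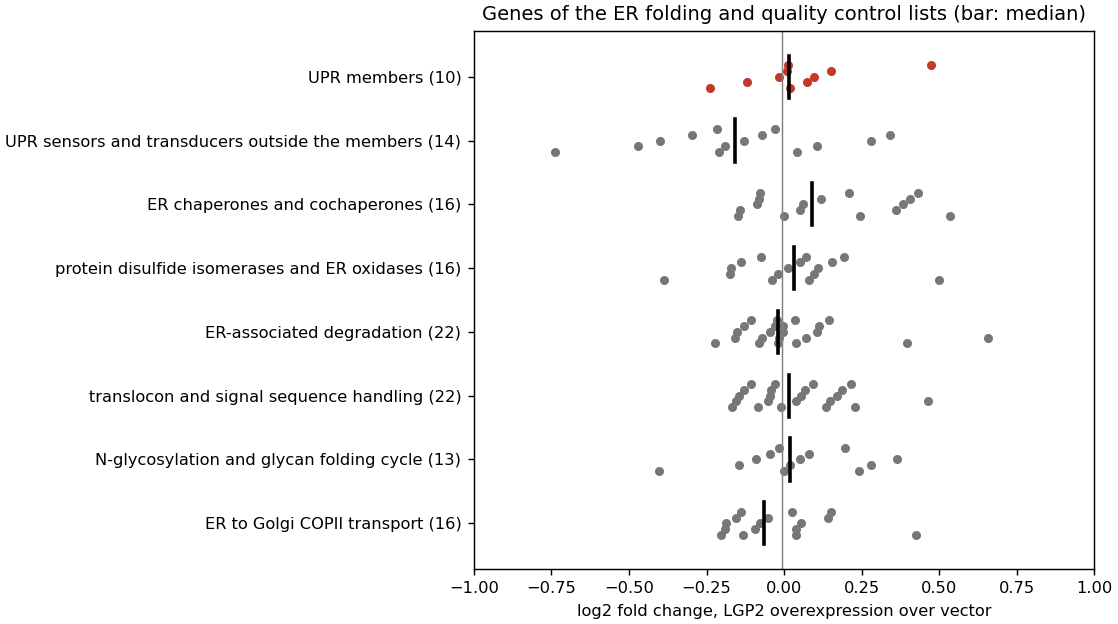
Log2 fold change of each tested gene in the set of 10 (red) and in the 7 lists around it (grey), with the number of genes in brackets, the list's median as a black bar and the median of all tested genes as a grey line. List medians lie between -0.16 and 0.09, and the widest range is among the sensors and transducers, from -0.74 (PPP1R15A) to 0.34 (MBTPS2).

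Genes that share the ER stress element were also read as a list defined by sequence alone, chosen after the data were seen. An ERSE or ERSE-II stood in the promoter of 44 genes of 27305, and 30 of these were tested. Besides XBP1, HYOU1, HERPUD1 and SDF2L1 they include HSPA5, HSP90B1, CALR, CANX, PDIA6 and CRELD2. They also include genes that stand in none of the lists above, such as CAMTA1, NAV2, PLS3, RUVBL2 and ZNF143. With LGP2 overexpression 14 of the 30 were below 0 and 16 above, and their median was 0.01 on the log2 scale. By edgeR 0 were called, and 2 (CANX and HSP90B1) had an unadjusted p under 0.05. Between the vector libraries 17 of the 26 genes outside the set were higher in replicate 2, a share of 65.4% beside 48.7% of all tested genes. Their differences ran from -1.06 to 0.48 in log2 CPM, with a median of 0.05. Other genes with a mean at or above that of ERN1 were higher in replicate 2 for 5187 of 10054. In the lists chosen by function the counts ran from 5 of 14 (sensors and transducers) to 18 of 22 (entry), with 11 of 16 isomerases and oxidases. Such a share is thus not particular to genes with the element. The list defined by sequence was read after its 4 members in the set had shown such a difference, and no test was made.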

How the data were processed

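The values are raw counts, whole numbers for each gene and library, which the authors deposited with human symbols. The submitters' processing notes name mm10, a mouse build. Aligner, counting tool, gene annotation and strand setting were not given in the sources used here. Per the labels' protocols, RNA was taken with Trizol and a SMARTER kit made the mRNA libraries. All genes entered a quasi-likelihood fit in edgeR 4.0.16 under R 4.3.3 (two-sided test, TMM, no covariate), and filterByExpr left 17863 of them. Fitted log2 differences had a median SE of 0.23 at this depth. Benjamini-Hochberg adjustment ran over all of them, with a threshold of 0.05. SE came from the F statistic, and log2 CPM used a prior count of 2. The 10 genes, the lists and the alternatives were chosen with earlier results of these data known. Named genes are the 10, DHX58, the 2 genes per list with the highest mean, those with the highest and lowest log2 fold change at 5 CPM or more, and 10 fixed names. Others were named after their values were seen. The alternatives were DESeq2 1.42.0, limma-voom (limma 3.58.1), other scalings and filters, a replicate block and leaving out each library. GC and length offsets (splines with 5 degrees of freedom) were added later. Symbols were matched to GENCODE 29 (19831 exactly, 464 by older symbols, 618 not).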

Additional observations from a re-analysis of the deposited data

How the results depend on the processing

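No alternative called any of the 10 genes, and of 130 refitted log2 fold changes of the set 116 kept their direction. With GC and length offsets, chosen after seeing the data, ATF6 turned to -0.056, DNAJB9 to -0.029, SDF2L1 to 0.15, CALR to 0.10, NPLOC4 to 0.023, GANAB to 0.035 and SYVN1 to 0.053. With library totals and no scaling factor SDF2L1 was at 0.033, CALR at 0.045, NPLOC4 at 0.039, GANAB at 0.037, SYVN1 at 0.040 and the median of the set at 0.062. With no filter CALR was at 0.0027, NPLOC4 at 0.0012 and SYVN1 at 0.0018, and at least 5 CPM in 2 libraries put CALR at 0.0015. GANAB was at 0.0116 with limma-voom. Without 1 library the ranges that crossed 0 were -0.10 to 0.12 for XBP1, -0.26 to 0.040 for HERPUD1, -0.0073 to 0.21 for DNAJB9, -0.21 to 0.28 for EDEM1, -0.092 to 0.13 for HYOU1, -0.18 to 0.16 for SDF2L1, -0.44 to 0.059 for ATF4, -0.82 to 0.19 for DDIT3, -0.14 to 0.13 for CALR, -0.0036 to 0.14 for PDIA3, -0.13 to 0.19 for VCP, -0.11 to 0.10 for NPLOC4, -0.063 to 0.24 for RPN1, -0.29 to 0.32 for GANAB, -0.011 to 0.31 for MCFD2 and -0.059 to 0.053 for SYVN1. The median of the set ran from -0.050 to 0.12 without 1 library. Over the table edgeR called 3 genes higher and 0 lower, which became 1 higher with no filter, 2 lower at 5 CPM, 14 and 9 with DESeq2, 2 lower with limma-voom, and 1 to 291 higher and 1 to 141 lower without 1 library. The cause of these changes was not tested.

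With the replicate number as a block, edgeR called 5 genes higher and 3 lower over the table and 0 of the set, whose median was 0.03, and GANAB turned to 0.0111. Replicate differences of the 2 groups correlated at 0.03 across genes, the labels give no pairing, and 2 pairs are too few to show one.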

Other observations

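Further genes whose promoters hold an ERSE or ERSE-II belong to the ER or the Golgi without standing in the lists above, and their values were chosen after they were seen. FICD, an enzyme that modifies BiP, had 431 and 509 counts with LGP2 overexpression, against 391 and 403 counts in vector, a log2 fold change of 0.24 (SE 0.23). SERP1, a protein that stabilises membrane proteins in the translocon, had 7703 and 10697 counts with LGP2 overexpression, against 10371 and 9360 counts in vector, a log2 fold change of -0.11 (SE 0.15). ALG12, a mannosyltransferase, was at -0.10 (SE 0.17). NUCB1, a calcium-binding protein of the Golgi, was at -0.28 (SE 0.16). None of these was called by edgeR.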
